A study of Mus musculus with 123 samples.

Results

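At day 3 after sciatic nerve transection (SNT), the single dorsal root ganglion (DRG) neurons of the injured side fell into 30 cells with Atf3 at 500 CPM (a gene's counts scaled to a total of 1000000 per cell) or more and 11 cells with Atf3 below 100 CPM, and these sets are called Atf3-high and Atf3-low cells here. They make up all 41 SNT-side cells of day 3 that remained after outlier removal, out of 106 kept cells and 117 single cells in all, and 0 cells lay between the limits. The mice were 2 month old F1 animals of a cross of a CAST/Eij male with a C57BL/6 female, the right sciatic nerve was cut at mid thigh, and cells were picked by hand from dissociated lumbar ganglia (L5 in the labels). 18 kept cells from the other, intact side at day 3 served as control side, and 33 SNT-side cells of female C57BL/6 mice of the same age, which the labels' titles place at day 7, were split by the same limits into 12 Atf3-high and 21 Atf3-low cells. Every mouse in these groups had been operated, and the labels mark neither the animal of a cell nor whether its own axon had been cut.

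Atf3 encodes a stress-induced transcription factor of the ATF/CREB family that is nearly silent in intact sensory neurons and is switched on in those whose peripheral axon is damaged, for which it is widely used as a marker. Axotomized DRG neurons are known to pass into a regenerative state, in which growth-associated genes and injury neuropeptides are made and many ion channels, receptors and transmitter peptides are reduced. The sciatic nerve carries only some of the axons of a lumbar ganglion, so that intact neurons lie among the cut ones.

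Atf3 chose the cells, so its values are a description. It was at 951 to 4436 CPM (median 1941) in Atf3-high cells, 0.65 to 23 CPM (median 6.81) in Atf3-low cells and 0 to 75.7 CPM (median 8.75) in control-side cells. The Atf3-high cells nearest to the limit stood at 951 and 1018 CPM and the nearest Atf3-low cells at 23 and 22.9 CPM. With no animal named, all SNT-side cells of day 3 are 1 sample, so every value in what follows describes these cells, no difference between the sets was tested, and ranges and ratios give the spread over cells only. Ratios are log2((mean CPM + 1) of Atf3-high cells over that of Atf3-low cells), which understates the difference of genes with low levels.

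Depth was alike in both sets, with 634196 to 1849130 counts per Atf3-high cell and 611647 to 1537755 per Atf3-low cell. After thinning to 600000 counts, the median number of genes with at least 1 count was 11978.5 in Atf3-high and 11968 in Atf3-low cells (12526 and 12209 before thinning). All were neurons by their markers: Tubb3, neuronal beta-tubulin, was at 4824 to 11346 CPM (median 7609.9) in Atf3-high and 2771 to 6882 CPM (median 3686) in Atf3-low cells, and Snap25, a synaptic release protein, at 157 to 3189 CPM (median 874) and 309.5 to 4227 CPM (median 495). The summed level of 10 markers of satellite glia and Schwann cells was 947 to 11551 CPM (median 6053) in Atf3-high cells, 1019 to 7749 CPM (median 3754) in Atf3-low cells and 1106 to 15045 CPM (median 3854) on the control side, and its part in any result was not tested. Neutrophil transcripts came from Atf3-high cell 46, where 6 of them summed to 4067 CPM against at most 18.3 CPM in any other Atf3-high cell. 7 SNT-side cells of day 3 that the study had removed as outliers held 44082 to 104332 CPM of the glial markers and 146 to 1810 CPM of Tubb3, and 5 of them had Atf3 below 100 CPM. They are in no set here, and values with these 5 added to the Atf3-low cells are called values with outlier cells added. For 8 immune cell markers the sum had a median of 3.00 CPM in Atf3-high and 2.34 CPM in Atf3-low cells, with Cd74 and Ptprc at 0 in every Atf3-low cell.

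The sets did not hold the same kinds of neuron. P2rx3, an ATP-gated channel of nonpeptidergic (NP) nociceptors, was at 100 CPM or more in 15 of 30 Atf3-high and 7 of 11 Atf3-low cells. Pvalb, a calcium-binding protein of large myelinated (LM) neurons such as proprioceptors, was at 10 CPM or more in 9 Atf3-high and 0 Atf3-low cells (0 of 11 cells allows a share of up to 27.3%). Among Atf3-low cells, 8 of 11 held Mrgpra3, Mrgprb4 or Mrgprd, receptors of NP subsets, at 100 CPM or more, against 0 of 30 Atf3-high cells. Calca, the gene for the peptide CGRP of peptidergic (PEP) nociceptors, was at 1000 CPM or more in 10 Atf3-low and 2 Atf3-high cells. Atf3-low cell 18 stood apart, with Calb1, a calcium-binding protein, at 2528 CPM. Since many of these markers are themselves among the genes that differ most, neuron type and Atf3 state could not be fully told apart, and comparisons inside P2rx3-positive cells are given beside the results they bear on.

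**Figure D1:**
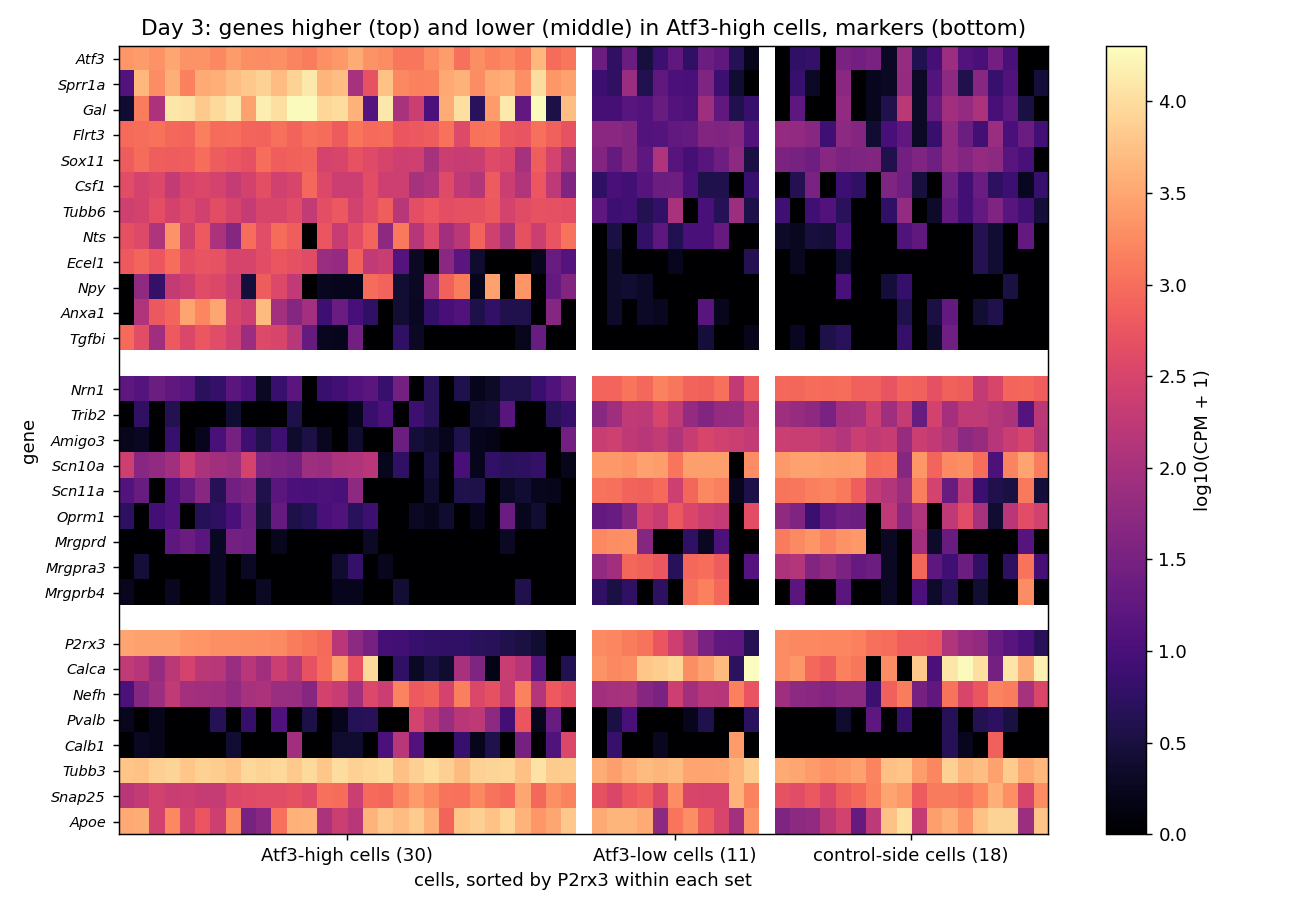
Each column is a cell and each row a gene, coloured by log10(CPM + 1), with cells sorted by P2rx3 within the Atf3-high (30), Atf3-low (11) and control-side (18) sets. Genes of the upper block were high along the whole Atf3-high set or in its P2rx3-rich left part (Ecel1, Anxa1, Tgfbi), those of the middle block were low there, and Atf3-low cells looked like control-side cells in both.

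Atf3 aside, 9752 genes reached a mean of 10 CPM in one set or the other, and of these 870 (8.92%) were at least 2-fold higher in Atf3-high cells and 1038 (10.6%) at least 2-fold lower. At least 4-fold, 322 genes (3.3%) were higher and 369 (3.78%) lower, and the median ratio over all genes was -0.03. In 30 genes (0.308%) every Atf3-high cell lay above every Atf3-low cell, and in 20 genes (0.205%) every Atf3-high cell lay below every Atf3-low cell. These 50 genes became 102 without Atf3-low cell 18 and 14 when the outlier cells were added, and without Atf3-high cell 46 the 2-fold counts were 872 and 1024. Atf3-low cells were close to the control side: of 9514 genes that reached a mean of 10 CPM in one of these sets, 127 (1.33%) were at least 2-fold higher and 222 (2.33%) at least 2-fold lower in Atf3-low than in control-side cells. By the correlation of log2(CPM + 1) over the 9752 genes, 10 of 11 Atf3-low cells were on median more like control-side than like Atf3-high cells (r of 0.653 to 0.752 against 0.592 to 0.671), while 0 of 30 Atf3-high cells were.

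The genes that separated every cell included adhesion, cytokine, stress and cytoskeletal genes. Flrt3, a fibronectin leucine-rich transmembrane adhesion protein, was at 380.2 to 1422 CPM (median 921) in Atf3-high cells and 11.7 to 49.2 CPM (median 38.5) in Atf3-low cells, with control-side cells at 1.06 to 71.7 CPM (median 19.4). Its ratio was 4.80, and the lowest Atf3-high cell was still far above the highest cell of either other set. Gpr151, an orphan receptor, was at 64.7 to 563 CPM (median 316) against 0 to 20.5 CPM (median 4.55), with a ratio of 5.34. Csf1, the cytokine by which injured neurons signal to microglia and macrophages, was at 37.1 to 901 CPM (median 278) against 0 to 24.3 CPM (median 7.48), and control-side cells resembled Atf3-low cells at 0 to 35.6 CPM (median 5.24). Gadd45a, a DNA damage and stress response gene, was at 83.1 to 595 CPM (median 258) against 2.64 to 41.3 CPM (median 17.4). The tubulin isotype Tubb6 was at 148 to 714 CPM (median 419) against 0 to 107 CPM (median 7.02), a ratio of 4.14 that reached 4.82 without Atf3-low cell 31.

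Others of this kind were Itga7, an integrin subunit that binds laminin, with 234 to 1897 CPM (median 1014) against 54.6 to 196 CPM (median 101), and Stmn4, a microtubule regulator of the stathmin family, with 51.5 to 491 CPM (median 166) against 0 to 41.3 CPM (median 15.2). Smad1, the effector of BMP signalling, stood at 56.5 to 225 CPM (median 117) in Atf3-high and 7.02 to 42.5 CPM (median 26.4) in Atf3-low cells, and Crem, a cAMP-responsive transcription factor, at 30.1 to 109 CPM (median 52.7) and 1.7 to 21.1 CPM (median 11.2). Of these genes Itga7 had the narrowest gap between the sets. Srxn1, sulfiredoxin, an antioxidant enzyme, was at 418 to 1429 CPM (median 843) against 76.1 to 184 CPM (median 141), and Cd63, a tetraspanin of late endosomes, at 142 to 895 CPM (median 476) against 0 to 78.5 CPM (median 19.8). The ratio of Cd63 was 3.98, and 0.66 with outlier cells added. The widest gaps also included Gpr133, an adhesion receptor, with a ratio of 5.61, Smim3 with 5.33, Epb4.1l4a with 4.62, Kif22, a kinesin, with 3.49, and Hn1 with 1.84. The smallest of these ratios, that of Hn1, came with 840.4 to 1742 CPM (median 1317) in Atf3-high and 146 to 519 CPM (median 327) in Atf3-low cells, so that a moderate difference was shared by every cell. Single control-side cells reached into the Atf3-high range for Cd63, Crem, Epb4.1l4a, Gpr133 and Smad1.

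**Figure D2:**
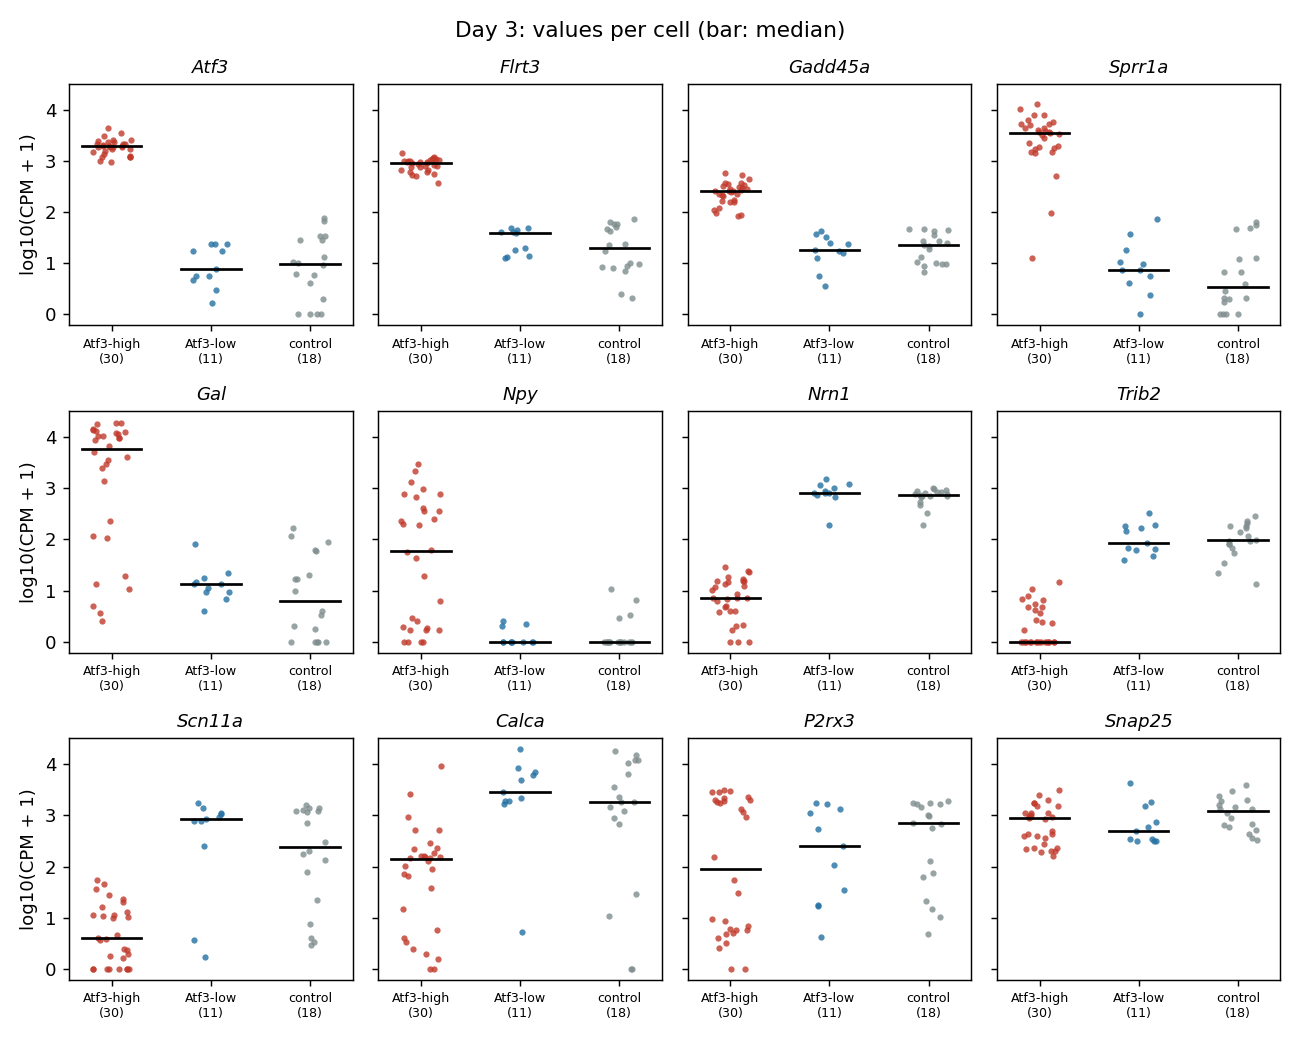
Each point is a cell, on a log10(CPM + 1) axis, with a bar at the median of the Atf3-high (30), Atf3-low (11) and control-side (18) cells. Flrt3 and Gadd45a lay higher and Nrn1 and Trib2 lower in every Atf3-high cell than in any Atf3-low cell, whereas Gal, Npy and P2rx3 spread over several orders of magnitude within the Atf3-high set and Snap25 overlapped.

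Promoter sequence is given for 4 of the higher genes and for Atf3, because each window holds a motif that AP-1 or ATF family dimers are known to bind. The windows are the 250 bases before the RefSeq start on GRCm38.p6, read 5′ to 3′ on the gene's strand, with the motif in capitals: the AP-1 site TGANTCA, or the C/EBP-ATF element TGATGNAA, searched on both strands. The cAMP response element TGACGTCA was searched too and is in none of these 5 windows. The 2 motifs shown overlap nowhere in them, the genes were chosen after their values were seen, and a match of letters shows no binding. Sprr1a (chr3:92485882-92486131, minus strand) and Srxn1 (chr2:152105274-152105523, plus strand) each hold a pair of AP-1 motifs, Nts (chr10:102490419-102490668, minus strand) holds 1 of each kind, and Chac1 (chr2:119350992-119351241, plus strand) and Atf3 (chr1:191183334-191183583, minus strand) hold 1 C/EBP-ATF element.
Sprr1a: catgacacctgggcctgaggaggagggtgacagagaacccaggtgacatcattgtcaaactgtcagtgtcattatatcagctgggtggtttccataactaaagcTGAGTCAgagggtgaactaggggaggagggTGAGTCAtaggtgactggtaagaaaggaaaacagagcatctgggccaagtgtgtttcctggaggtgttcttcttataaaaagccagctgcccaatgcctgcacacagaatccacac
Srxn1: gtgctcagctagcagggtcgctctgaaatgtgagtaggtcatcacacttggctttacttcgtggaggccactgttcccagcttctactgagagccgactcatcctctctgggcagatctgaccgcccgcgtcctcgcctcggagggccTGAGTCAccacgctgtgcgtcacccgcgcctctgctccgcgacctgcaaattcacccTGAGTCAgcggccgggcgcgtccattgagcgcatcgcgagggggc
Nts: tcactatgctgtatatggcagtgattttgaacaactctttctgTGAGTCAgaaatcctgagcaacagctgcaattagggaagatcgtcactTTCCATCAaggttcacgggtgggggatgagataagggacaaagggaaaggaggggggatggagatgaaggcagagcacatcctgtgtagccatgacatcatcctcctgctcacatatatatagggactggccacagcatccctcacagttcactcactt
Chac1: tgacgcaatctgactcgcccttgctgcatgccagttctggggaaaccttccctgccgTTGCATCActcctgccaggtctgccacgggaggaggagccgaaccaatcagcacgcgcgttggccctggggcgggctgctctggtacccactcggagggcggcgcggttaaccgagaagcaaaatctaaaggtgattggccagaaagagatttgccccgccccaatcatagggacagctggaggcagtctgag
Atf3: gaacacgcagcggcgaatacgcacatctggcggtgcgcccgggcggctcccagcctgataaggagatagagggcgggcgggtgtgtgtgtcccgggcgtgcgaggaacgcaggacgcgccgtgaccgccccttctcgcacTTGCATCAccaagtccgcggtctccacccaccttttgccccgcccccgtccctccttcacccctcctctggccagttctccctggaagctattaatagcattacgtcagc
In all 27025 genes with such windows (250 bases before to 50 after a start), 8.97% held the AP-1 motif and 4.51% the C/EBP-ATF element, and in the 7832 of 9752 tested genes with a window 5.98% and 2.86% did. The cAMP response element was in 2.03% and 3.96%. Windows were found for 77.0% of the 322 genes at least 4-fold higher and 76.2% of the 369 at least 4-fold lower. Part of each set was thus not searched, and motif shares of these sets are not compared here.

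The largest ratios belonged to genes that were nearly off in Atf3-low cells but varied widely among Atf3-high cells. Gal, the neuropeptide galanin, was at 1.49 to 18957 CPM (median 5911) in Atf3-high and 2.91 to 80.2 CPM (median 12.1) in Atf3-low cells, a ratio of 8.56 (9.17 without Atf3-low cell 1). 24 Atf3-high cells were above every Atf3-low cell, while 2 were below all of them. Npy, neuropeptide Y, was at 0 to 3006 CPM (median 59.1) in Atf3-high cells, of which 18 (60.0%, exact 95% interval 40.6% to 77.3%) were at 10 CPM or more. The 11 Atf3-low cells held 3 Npy counts in all, and the ratio of the sets' summed counts, each taken over its set's total, was 1809 with a counting interval of 619 to 8771. Sprr1a, a small proline-rich protein that promotes axon growth, was at 11.9 to 13019 CPM (median 3588) against 0 to 71.8 CPM (median 6.54). All but 1 of the Atf3-high cells lay above every Atf3-low cell, and the ratio was 7.95 (8.57 without Atf3-low cell 16). Nts, neurotensin, was at 0 to 2127 CPM (median 400.5) against 0 to 19.6 CPM (median 3.03), with 29 of 30 Atf3-high cells above all Atf3-low cells.

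Some of these genes followed P2rx3 among Atf3-high cells. Anxa1, annexin A1, was at 100 CPM or more in 9 of 15 Atf3-high cells with P2rx3 at 100 CPM or more and in 0 of the other 15. Tgfbi, an extracellular matrix protein, was so in 10 of 15 and 0 of 15, and Ecel1, an endopeptidase-like protein induced by nerve injury, in 13 of 15 and 3 of 15. By contrast Sprr1a reached 100 CPM in 14 of 15 and 14 of 15, and Nts in 13 and 13. Npy did so in 8 and 6. No Atf3-low cell reached 100 CPM of any of these genes, whatever its P2rx3. The overall ratios were 7.61 for Anxa1 (8.53 without Atf3-low cell 1), 7.59 for Ecel1 and 7.00 for Tgfbi, which had 3 counts in all Atf3-low cells and a ratio of summed counts of 621 (counting interval 212 to 3010). Spp1, osteopontin, was highest in Pvalb-rich cells, at 100 CPM or more in 3 of 5 Atf3-high cells with Pvalb at that level and 1 of the other 25.

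The remaining genes among the 15 largest differences were Wfdc3, Slc6a4, Flnc, Pappa2, Sez6l, Fgf3 and Cryba2, besides Gpr133. Slc6a4, the serotonin transporter, was at 0 to 1442 CPM (median 76.8) against 0 to 6.53 CPM (median 0.852), and Flnc, filamin C, an actin crosslinker, at 0 to 591 CPM (median 48.4) against 0 to 2.76 CPM (median 0). Wfdc3, named for its whey acidic protein domain, was at 0 to 771 CPM (median 20.1), with 3 counts in all Atf3-low cells and a ratio of summed counts of 487 (counting interval 167 to 2363). These genes were at or near 0 in most Atf3-low cells and also in some Atf3-high cells. Sez6l, a membrane protein, had a ratio of 5.60 (6.57 without Atf3-low cell 18). Pappa2, a protease that cleaves IGF-binding proteins, was at 0 to 588 CPM (median 41) against 0 to 8.98 CPM (median 0), a ratio of 5.79 (6.51 without Atf3-low cell 16). Fgf3, a fibroblast growth factor, had 0 counts in the 11 Atf3-low cells and 0 to 145 CPM (median 41.5) in Atf3-high cells, which is at least 195-fold higher when 3 counts over the set are taken as the floor. Cryba2, a crystallin, was at 10 CPM or more in 28 of 30 Atf3-high cells and had 1 count in all Atf3-low cells, a ratio of summed counts of 621 (counting interval 111 to 24529).

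Injury transcription factors were higher in part. Of 15 listed factors at the level filter, 7 were at least 2-fold higher (8.92% of all genes were) and 0 lower, with a median ratio of 0.85 against -0.03 over all genes. Sox11, a developmental factor that promotes axon regeneration, was at 97.7 to 1017 CPM (median 438) against 2.3 to 123 CPM (median 18.7), and 27 of 30 Atf3-high cells were above every Atf3-low cell. Jun, the AP-1 partner of ATF3, was at 143 to 817 CPM (median 394) against 9.86 to 194 CPM (median 54.5), but control-side cells reached 356 CPM. Klf6 had a ratio of 2.61, Nfil3, a repressor that shares ATF-type sites, 3.07 and Fosl2 1.67 (0.95 in cells with Nefh at or above the median). Stat3, which is activated by phosphorylation in injured axons, was within 2-fold in transcript, with 263 to 910.1 CPM (median 557) against 96.8 to 644 CPM (median 568). Immediate early genes overlapped between the sets, with 5 of 8 at least 2-fold higher, among them Arc (2.70), Btg2 (3.02) and Dusp1 (2.54). With outlier cells added Arc was at 0.19 and Btg2 at 0.22, and without Atf3-low cell 18 Arc was at 3.4. The list's median of 1.28 was 2.55 without Atf3-low cell 16 and -1.38 with outlier cells added.

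Growth and regeneration effectors differed in one direction: 17 of 27 were at least 2-fold higher, 0 were 2-fold lower, and the median was 1.58. Gap43, a growth cone protein, was at 84.9 to 3294 CPM (median 1824) against 1.46 to 1341 CPM (median 694), so that most Atf3-low cells held it too, and its ratio was 1.58 over all cells and 0.73 in cells with Nefh at or above the median. Hspb1, a small heat shock protein that protects axotomized neurons, was at 317 to 5337 CPM (median 2716) against 19.9 to 778 CPM (median 352). Plaur, the urokinase receptor, had a ratio of 2.90, Mmp16, a membrane metalloproteinase, 3.51, Sema6a, a transmembrane semaphorin, 4.77 (5.69 without Atf3-low cell 18) and Fst, follistatin, 5.07. Basp1, Dpysl2 and Dpysl3, abundant growth cone proteins, stayed within 2-fold at 0.28, -0.25 and -0.47. Of 12 tubulins, Tubb6 and Tuba1c (1.26) were at least 2-fold higher, where 8.92% of all genes were, and Tubb3 had 0.92.

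Neuropeptide genes split in opposite directions, with 8 of 14 at least 2-fold higher and 5 lower (8.92% and 10.6% of all genes). Besides Gal, Npy and Nts, the higher ones were Adcyap1, the gene for PACAP, at 19.4 to 1883 CPM (median 347) against 3.3 to 89.5 CPM (median 5.83) (ratio 4.92, 5.63 without Atf3-low cell 31), and Ucn (5.06), Penk, Nppb and Cartpt. The last 3 rested much on 1 cell each: Penk, proenkephalin, had 5.76 and 3.77 without Atf3-high cell 13, and without Atf3-high cell 10 Nppb, a natriuretic peptide of itch neurons, went from 3.55 to -0.04 and Cartpt from 2.10 to 0.36. The lower ones were peptides that nociceptors are known to release, and a granin. Calca was at 0 to 9267 CPM (median 137) in Atf3-high and 4.25 to 20041 CPM (median 2852) in Atf3-low cells, a ratio of -3.27 (-4.43 without Atf3-high cell 11). Calcb, the second CGRP gene, was at 0 to 131 CPM (median 3.5) against 0.852 to 1501 CPM (median 457), and Nmb, neuromedin B, had a ratio of -3.90, Scg2, the granin, -2.10 (-0.68 in cells with Nefh under the median) and Tac1, the substance P gene, -4.37 (-2.76 without Atf3-low cell 20). The list's median of 2.83 is not typical of its members, and was 0.63 without Atf3-high cell 10 and -0.74 over members with at least 100 CPM.

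Receptors for trophic factors and cytokines also went both ways, with 6 of 19 at least 2-fold higher and 4 lower (8.92% and 10.6% of all genes). Gfra3, the artemin receptor, was at 0 to 2535 CPM (median 288) against 0 to 642 CPM (median 1.45), and its ratio of 3.2 was 7.1 without Atf3-low cell 8, which held 642 CPM. Tnfrsf12a, the receptor of the cytokine TWEAK, had a ratio of 3.64, Il31ra, part of the itch cytokine receptor for IL-31, 3.64 and Acvr1, a BMP type I receptor, 2.19. Gfra2, the neurturin receptor, was lower at -3.08, as were Ngfr, the low-affinity neurotrophin receptor, at -2.24 (-0.82 and -0.58 from medians over cells) and Igf1r at -2.04. Ret, the GDNF family co-receptor, was within 2-fold (688 against 609 CPM). In the JAK-STAT and secreted signal list 5 of 12 were at least 2-fold higher and 1 lower, with Csf1 first, then Stat5a (3.2), Stat5b (1.71, 0.64 in cells with Nefh at or above the median), Il34 (1.65) and Socs3, a feedback inhibitor of STAT3 (1.52, -0.90 with outlier cells added).

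Stress and death genes differed in a few members only, where 8.92% of all genes were at least 2-fold higher and 10.6% lower. In the integrated stress and unfolded protein response 6 of 23 were at least 2-fold higher and 0 lower: Chac1, which degrades glutathione, was at 1.93 to 576 CPM (median 12.2) against 0 to 44 CPM (median 5.1), and Sesn2, Ppp1r15a, Slc7a5, Trib3 and Phgdh had ratios of 1.26 to 2.26, of which that of Phgdh was -2.05 with outlier cells added. Atf4 itself had 0.93, and the endoplasmic reticulum chaperone Hspa5 0.19. Among 18 cell death regulators 3 were at least 2-fold higher and 3 lower, with a median ratio of 0.02, so no direction is read for the list. Pmaip1, the gene for the BH3-only protein NOXA, was at 0 to 498 CPM (median 33.3) against 0 to 18.2 CPM (median 1.17), with a ratio of 4.43 (5.18 without Atf3-low cell 18). The caspase gene Casp6 had a ratio of 2.68, which was -0.080 with outlier cells added. The survival genes Bcl2l1 (-1.21) and Bcl2 (-1.85; -1.23 without Atf3-low cell 18) and the BH3-only gene Bid (-1.27; -0.01 in cells with Nefh at or above the median) were lower. In cells with Nefh under the median Bcl2 was at -0.999. In the DLK-JNK and axon degeneration list, 14 of 15 stayed within 2-fold, as did 7844 of all 9752 genes. Chaperones passed 2-fold in 2 of 12, Hspb1 and Cryab, and the ratio of Cryab was 1.44 over all cells but -0.28 in cells with P2rx3 at 100 CPM or more.

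The metabolic, filament and MHC class I lists held up to 4 members each beyond 2-fold. Over all genes 8.92% were at least 2-fold higher and 10.6% lower, so the few members named are not read as a trait of their list. Of 11 enzymes of tetrahydrobiopterin, arginine and polyamine metabolism, Odc1, the first enzyme of polyamine synthesis (1.81), and Azin1, which protects it from breakdown (1.71, 0.94 with outlier cells added), were higher. Of 19 cholesterol synthesis genes these were Hsd17b7 (1.98) and Insig1 (1.28, 0.81 with outlier cells added), and of 7 intermediate filament genes Vim (1.37, -1.21 with outlier cells added). In MHC class I presentation Psmb8, H2-K1 and Tap2 were lower, with -1.20 to -2.08 (-0.56 for Tap2 in cells with Nefh at or above the median), and B2m, the light chain, was higher at 1.67 but -1.27 with outlier cells added.

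The genes lower in Atf3-high cells included some that every Atf3-low and every control-side cell held. Nrn1, neuritin, a membrane-anchored growth factor, was at 0 to 28.4 CPM (median 6.06) in Atf3-high cells, 189 to 1516 CPM (median 813) in Atf3-low cells and 193 to 994 CPM (median 749) on the control side, a ratio of -6.52 with no overlap. Amigo3, an adhesion molecule that inhibits axon growth, was at 0 to 29.3 CPM (median 0.878) against 117 to 324 CPM (median 209.6), and Trib2, a pseudokinase, at 0 to 13.8 CPM (median 0) against 38.7 to 327 CPM (median 84.3). In all 3 the Atf3-low cells overlapped the control-side cells and no Atf3-high cell reached the Atf3-low range. Fez1, an adaptor of kinesin transport, was at 71.0 to 279 CPM (median 144) against 374 to 1628 CPM (median 1049), Ppp1r1c, a protein phosphatase inhibitor, at 3.4 to 190.2 CPM (median 58.2) against 291 to 669 CPM (median 491), and Psen2, presenilin 2, at 4.48 to 30.7 CPM (median 14.1) against 44.4 to 119 CPM (median 67.3). Dusp15 (-3.52), Kbtbd11 (-3.37), Cmpk2 (-2.74) and Rhobtb2 (-2.02) completed the 10 widest gaps in this direction. The rule that chose these genes asks that every Atf3-low cell lie above every Atf3-high cell. That all 11 Atf3-low cells held them, at 8.29 CPM or more, is thus no separate result.

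The largest lower ratios mostly belonged to genes of NP subsets, which also mark the difference in neuron types. Mrgpra3, an itch receptor, was at 0 to 5.22 CPM (median 0) against 0 to 1005 CPM (median 587) (ratio -8.37), and 9 of 11 Atf3-low but 0 of 30 Atf3-high cells held 10 CPM or more. Mrgprx1, Mrgpra4, Mrgprb5, Mrgpra9 and Mrgpra2b had ratios of -6.79 to -5.47 (-6.28 for Mrgpra2b without Atf3-high cell 46), but these near-identical receptors can share reads, so their separate values are uncertain. The nicotinic receptor subunits Chrna6 (-6.50) and Chrnb4 (-5.92; -5.28 without Atf3-low cell 20), the glycosyltransferase A3galt2 (-6.18), Rgs8 (-6.08), Rgs5 (-5.64; -6.81 without Atf3-high cell 43), Paqr5 (-5.60) and Ly86 (-5.80) made up the rest with Nrn1 and Scn11a.

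Ion channel genes differed downward more often than upward, and a majority was lower among potassium channels. Of 13 voltage-gated sodium channel genes, 6 were at least 2-fold lower (10.6% of all genes were) and 0 higher. Scn10a and Scn11a, which encode the nociceptor channels Nav1.8 and Nav1.9, were at 0 to 297 CPM (median 35.6) against 0 to 2888 CPM (median 2475) and 0 to 53.1 CPM (median 2.94) against 0.728 to 1729.9 CPM (median 870.3). Scn9a, the gene for Nav1.7, was at 125 to 446 CPM (median 219) against 399.8 to 743 CPM (median 520.4), with 29 of 30 Atf3-high cells below every Atf3-low cell, and its ratio was -1.26 (-0.86 with outlier cells added). Scn3a, the embryonic channel known to appear after axotomy, was at 15.7 against 9.06 CPM (ratio 0.73). Potassium channels were the largest such group, with 24 of 41 at least 2-fold lower and 4 higher and a median of -1.50. Kcnmb1, a BK channel subunit, and Kcnk18, the gene for the leak channel TRESK, had ratios of -5.12 and -5.05, and the delayed rectifier Kcnb2 -2.98. Kcnmb4, another BK subunit, had the highest ratio of the group (22 against 2.29 CPM, ratio 2.80). Kcnc1 followed with 1.13, which was 1.95 without Atf3-low cell 18 and 0.86 without Atf3-high cell 29. Kcnj3 also passed 2-fold with 1.01. Its ratio was 0.66 without Atf3-high cell 5 and -1.43 in cells with P2rx3 at 100 CPM or more.

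Calcium channel genes were at least 2-fold lower in 5 of 12 and higher in 2 (10.6% and 8.92% of all genes). Cacna2d1, the alpha-2-delta-1 subunit to which gabapentin binds, was at 319.9 to 3386 CPM (median 1480.1) against 116 to 444 CPM (median 263), with 27 of 30 Atf3-high cells above every Atf3-low cell and control-side cells at 51.2 to 578 CPM (median 253). Cacna2d2, its relative, was lower (6.17 against 43.9 CPM, ratio -2.65). Of 17 sensory transduction channels 7 were at least 2-fold lower and 1, Asic1, higher (1.48; -0.29 in cells with P2rx3 at 100 CPM or more). Trpa1, the irritant receptor, was at 0 to 37.8 CPM (median 0) against 0 to 355 CPM (median 201). Trpc6 had a ratio of -4.93, and Piezo2, the touch channel, -1.29 (-0.39 in cells with Nefh at or above the median). Trpv1, the heat and capsaicin receptor, was at 63.6 against 102 CPM, a ratio of -0.67. That ratio was -1.47 without Atf3-high cell 21 and 0.59 without Atf3-low cell 8. P2rx3 was at 0 to 3087 CPM (median 103) against 3.3 to 1794 CPM (median 249), a ratio of 0.65.

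Most G protein-coupled receptors of nociceptors were lower, while most release genes were within 2-fold. Of 28 G protein-coupled receptors of nociceptors 18 were at least 2-fold lower and 4 higher (10.6% and 8.92% of all genes), with a median of -2.71. Oprm1, the mu opioid receptor, was at 0 to 23.6 CPM (median 2.31) against 0 to 598 CPM (median 208). F2rl2, a protease-activated receptor, and Lpar3, a receptor for lysophosphatidic acid, had ratios of -4.39 and -5.53 (-0.86 for Lpar3 in cells with Nefh at or above the median), and Galr1, a galanin receptor, had 0 counts in Atf3-high cells against 0 to 152 CPM (median 3.3) in Atf3-low cells. The higher ones were Cckbr, the cholecystokinin receptor, at 1.91 to 238 CPM (median 40.4) against 0 to 11.1 CPM (median 0) (ratio 4.54, 5.29 without Atf3-low cell 1), Npy1r (5.16; 4.47 without Atf3-high cell 5), and the serotonin receptors Htr1d and Htr1f (2.18 and 2.05; 4.17 and 4.22 without Atf3-low cell 18). Of 12 RGS genes, which end G protein signals, 6 were lower and 2 higher, and Rgs4 was at 0.957 to 3504 CPM (median 944) against 79.4 to 7789.6 CPM (median 4621). In the synaptic vesicle list 7 of 28 were at least 2-fold lower, among them Syt7 (-1.95), Syt1 (-1.29) and Rab3a (-1.11), of which the last 2 were at -0.82 and -0.63 with outlier cells added, and 1, the glutamate transporter Slc17a7, was higher (1.87; 3.65 without Atf3-low cell 18).

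Sensory neuron identity factors were at least 2-fold lower in 7 of 12 and higher in 1 (Shox2, 1.38; 4.53 without Atf3-low cell 18), with a median of -1.10. Of all genes, 10.6% were at least 2-fold lower and 8.92% higher. Etv5 and Etv1, ETS factors downstream of trophic signals, were at 0 to 49.2 CPM (median 7.3) against 8.74 to 796 CPM (median 184) and 0 to 49.2 CPM (median 4.48) against 1.52 to 653 CPM (median 69.9). Isl1 and Prrxl1 had ratios of -1.11 and -1.09 (-0.65 and -0.61 with outlier cells added), and Pou4f1, the gene for BRN3A, -0.92. Rbfox3, the gene for the nuclear marker NeuN, was at 3.83 to 134 CPM (median 48.2) against 121 to 329 CPM (median 183), with 29 of 30 Atf3-high cells below every Atf3-low cell. In contrast the 80 cytosolic ribosomal protein genes and the 77 oxidative phosphorylation genes that were measured all stayed within 2-fold, with medians of 0.20 and 0.07.

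**Figure D3:**
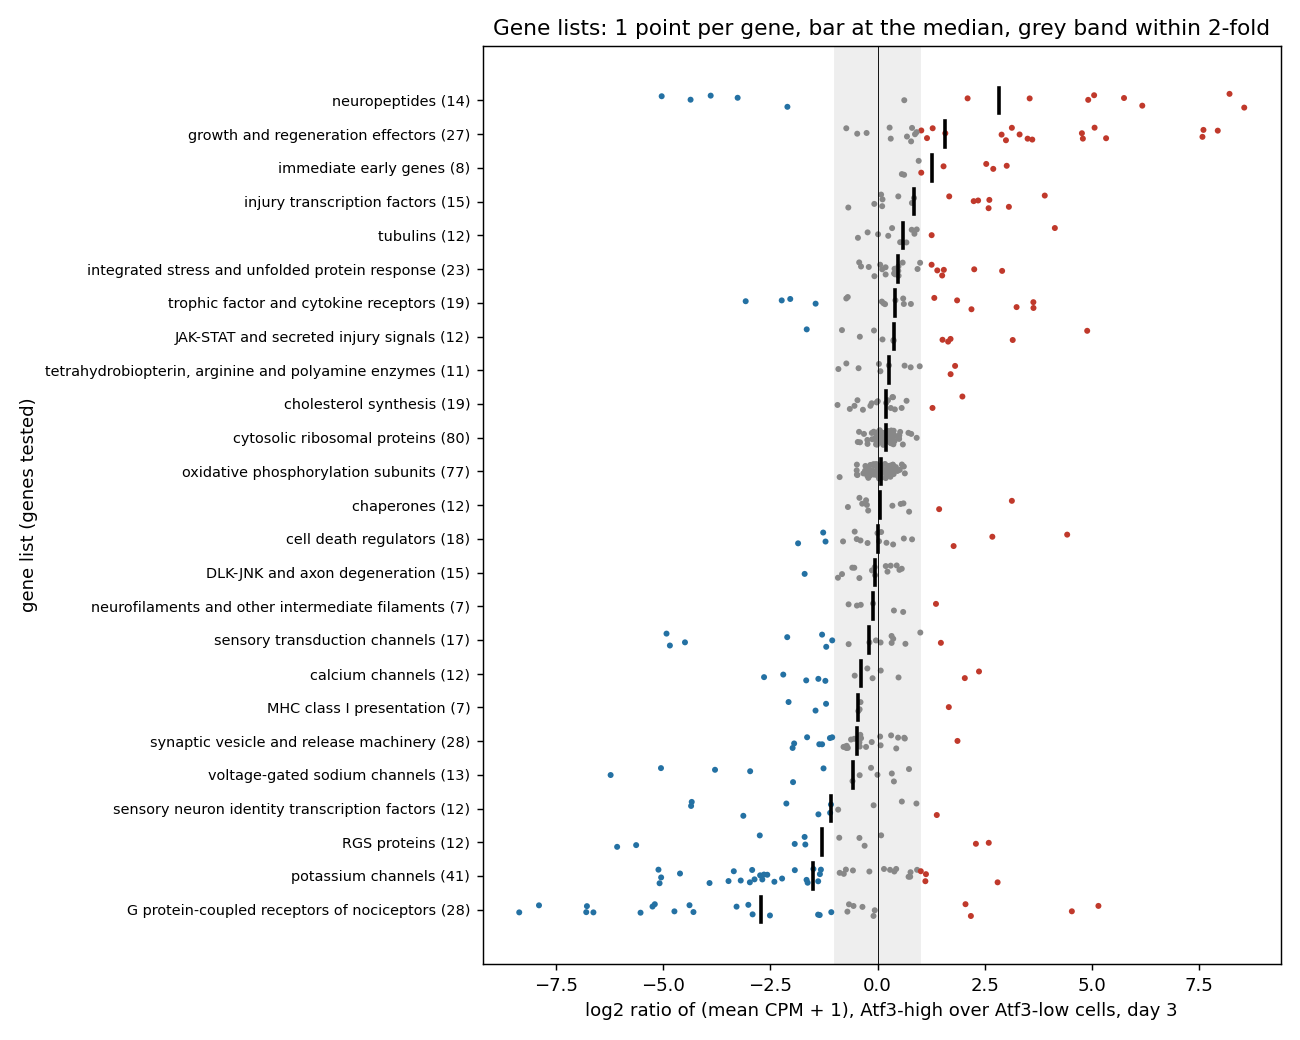
Each point is a gene of a list, placed by its log2 ratio of (mean CPM + 1) between 30 Atf3-high and 11 Atf3-low cells, with a black bar at the list's median and a grey band within 2-fold. Ribosomal and oxidative phosphorylation genes lie inside the band, potassium channels and nociceptor receptors reach far to the left, and neuropeptides fall into a left and a right group.

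Most of these genes also differed within P2rx3-positive cells. Among cells with P2rx3 at 100 CPM or more, a limit chosen after the values were seen, 15 Atf3-high and 7 Atf3-low cells had Nefh, a neurofilament of large neurons, at a median of 82.1 and 86.7 CPM. Calca was at a median of 163 and 2182 CPM in them, so they were not alike in every marker of neuron type. Of 9681 genes, 907 (9.37%) were at least 2-fold higher there and 1189 (12.3%) at least 2-fold lower. Of the 322 genes at least 4-fold higher over all cells, 306 (95%) were at least 2-fold higher in the P2rx3-positive cells, and of the 369 lower genes 361 (97.8%) were at least 2-fold lower. Both comparisons use the same cells in part, so this is no separate evidence. Gal was at a median of 9709 against 12.1 CPM there, Sprr1a at 4463 against 8.88 CPM and Ecel1 at 469 against 0 CPM. Scn10a had 79.8 against 2475 CPM, Scn11a 10.5 against 870.3 CPM and Nrn1 9.42 against 892 CPM, although P2rx3 itself was at 1973 against 1133 CPM. Mrgpra3 was at 0 against 587 CPM, so it was low also in Atf3-high cells that held P2rx3. Apoe, a lipid carrier made by satellite glia, had ratios of 0.63 over all cells and -0.90 in P2rx3-positive cells.

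In cells with Nefh at or above the median of 144 CPM, 16 Atf3-high and 5 Atf3-low, 312 of the 322 higher and 359 of the 369 lower genes were beyond 2-fold in the same direction. Calca was at a median of 20.6 CPM in these Atf3-high and 4837 CPM in these Atf3-low cells, and Nefh at 408 and 251 CPM. The 2 sets were thus not alike in neuron type there, and its part in these ratios was not tested. Of all 9833 genes at the level filter in these cells, 991 were at least 2-fold higher and 1237 lower. The same cells took part in choosing the 322 and 369 genes, so this is no separate evidence. Glial markers moved with the sets there: 8 of 10 were at least 2-fold higher in Atf3-high cells and 0 lower, with a median of 2.14 and Apoe at 2.30, against 0 of 10 higher and 2 lower in P2rx3-positive cells (median -0.55). Their part in the ratios of other genes was not tested. Ratios there were 7.99 for Sprr1a, 7.66 for Gal, 4.62 for Flrt3, -6.44 for Nrn1 and -5.85 for Scn10a. Penk was at 0.62 and Cartpt at -1.52 in these cells, in place of the 5.76 and 2.10 over all cells.

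Cells of day 7, which share no cell with the day 3 sets, gave the same direction for most of these genes. They came from C57BL/6 mice and had 261351 to 965292 counts. Atf3 was at 704 to 1778 CPM in 12 Atf3-high and 0 to 13.9 CPM in 21 Atf3-low cells, which were richer in Nefh (medians of 1507 and 3858 CPM) and poorer in P2rx3 (1.16 and 7.82 CPM) than the cells of day 3. Over the 9752 genes, 687 (7.04%) were at least 2-fold higher at day 7 and 1100 (11.3%) lower. Of the 322 genes at least 4-fold higher at day 3, 229 (71.1%) were at least 2-fold higher at day 7, and of the 369 lower genes 258 (69.9%) were lower. At least 2-fold on both days, 431 higher genes were shared, which is 49.5% of those of day 3 and 62.7% of those of day 7, and 584 lower genes, which is 56.3% and 53.1%. Of the 30 genes with every Atf3-high cell above at day 3, 29 were at least 2-fold higher at day 7, and of the 20 with every cell below, 18 were lower.

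Single genes showed where the days were alike and where not. Sprr1a was at 3019 against 0.447 CPM in Atf3-high and Atf3-low cells of day 7, Npy at 1664 against 0.309 CPM, Gpr151 at 225 against 0.137 CPM and Flrt3 at 566 against 14 CPM. Nrn1 was at 9.92 against 431 CPM and Scn10a at 3.3 against 669.9 CPM. Anxa1, which followed P2rx3 at day 3, was at 0.281 against 2.65 CPM (ratio -1.51), and Tgfbi at 1.21 against 0 CPM. Both genes were under the level filter of 10 CPM in both sets of day 7, so no direction is read for them. Mrgpra3, Mrgprd and Trpa1 had means under 1 CPM in both sets at day 7, so nothing can be read for them there. Trpv1 was at 1.03 against 28.7 CPM at day 7 (ratio -3.87) and Gfra1, the GDNF receptor, at 1574 against 88.5 CPM (ratio 4.14, and 0.60 at day 3). Immediate early genes had a median of 0.01 at day 7 and growth effectors 2.13. Whether the days differ was not tested, since each is 1 sample, and day, strain and neuron types cannot be told apart.

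**Figure D4:**
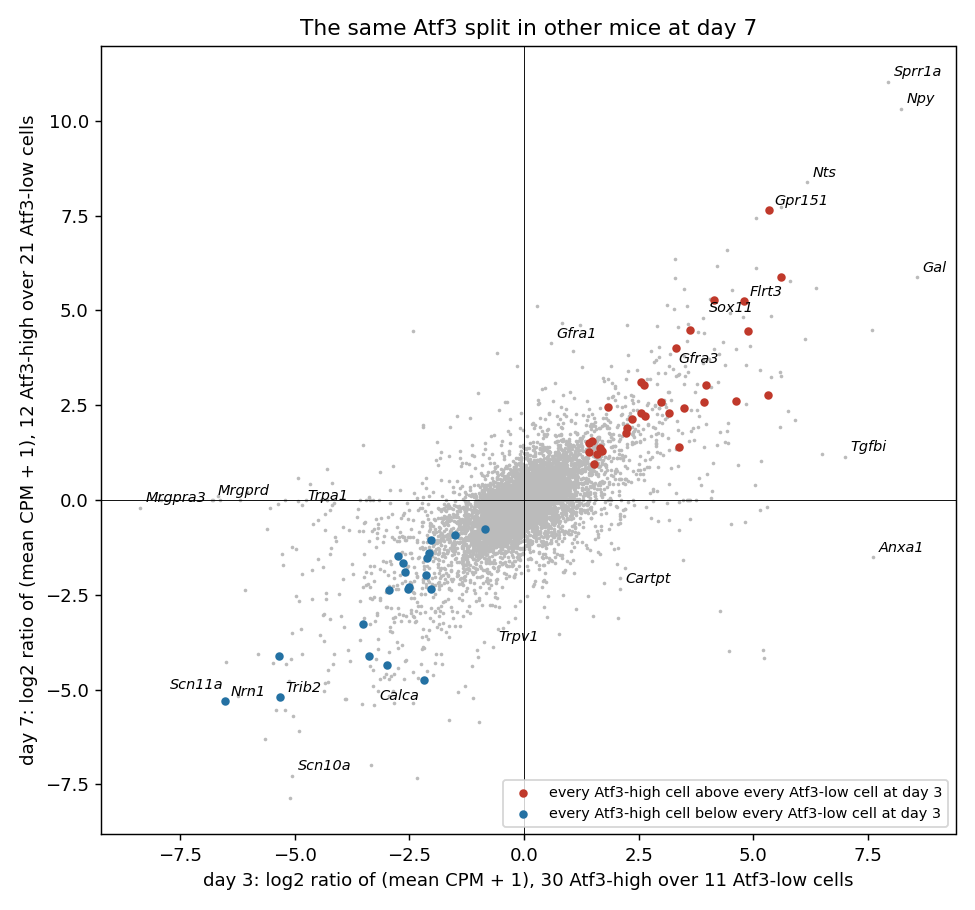
Each point is a gene, with the log2 ratio of (mean CPM + 1) between Atf3-high and Atf3-low cells at day 3 on the x axis and at day 7 on the y axis. Genes that separated every cell at day 3 (red higher, blue lower) lie in the upper right and lower left, while Mrgpra3, Mrgprd and Trpa1 lie near 0 on the day 7 axis and Anxa1 below 0.

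The genes whose level followed Atf3 most closely over the 41 cells, by Spearman's rank correlation, were Nfil3 (rho 0.84), Cttn, the actin regulator cortactin (0.838), Pfkfb4, a regulator of glycolysis (0.826), Smad1 (0.822) and Stmn4 (0.818). Atf3 itself formed the sets, so over the 41 cells a gene that differs between them can follow it for that reason alone. How much of each rho the split gives was not tested. Within the 30 Atf3-high cells alone rho was 0.672, 0.622, 0.614, 0.567 and 0.586, and 0.136 for Gal, 0.034 for Sprr1a and 0.554 for Flrt3. The first 5 genes were chosen over cells that include these 30, so their rho within them is no separate result. All cells share 1 normalization and come from 1 sample, so these correlations are descriptions over cells.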

How the data were processed

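Per the labels, single neurons were picked by hand from dissociated ganglia and their polyA RNA was amplified by Smart-seq2. The authors demultiplexed reads with CASAVA 1.8.2, aligned them to mm9 with Bowtie2 and deposited RSEM expected counts per gene (24134 genes), under a name that reads as TPM, in a table of all cells and one without the cells they removed as outliers. Reads of CAST/Eij alleles were thus aligned to a C57BL/6 genome. 6 columns of pooled cells were not used. Values were divided by each cell's total and scaled to CPM without length correction, so levels are not compared between genes. Ratios used a pseudocount of 1 CPM, and a gene entered the comparison with a mean of at least 10 CPM in a set. No animal is named, so no test was made. Intervals for shares of cells are exact Clopper-Pearson 95% intervals, the limit given for 0 of 11 cells is 3 of 11 cells, and intervals of count ratios cover counting error only, since reads carry no molecular identifiers. The closest pair of cells correlated at 0.955 and none were identical.

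Named genes were members of the lists, the 15 largest ratios each way among genes at 10 CPM or more in at least 0.5 of the cells of the higher set, the 10 widest gaps each way among genes whose sets did not overlap, and the 5 genes most like Atf3. The members and lists were chosen with earlier results of these data known, and the subset of P2rx3-positive cells and the omission of Atf3-high cell 46 were added after seeing the data. Promoters came from RefSeq on GRCm38.p6, and no coordinates were moved between builds. Scripts ran in Python 3.11.15 with numpy 2.4.6, pandas 2.3.3 and scipy 1.17.1, and were tested on simulated data. Some members of the lists are counted but not reported by name here.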

Additional observations from a re-analysis of the deposited data

Results flagged for a closer look

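4 cells of the day 3 SNT side that the study had removed as outliers held Atf3 above the highest control-side value of 75.7 CPM. They are data outside the comparisons of the report, and their Atf3 was at 255 CPM in cell 34, 180 CPM in cell 40, 90.7 CPM in cell 41 and 82.2 CPM in cell 38. Cells 34 and 40 lie between the limits of 100 and 500 CPM, where no kept cell lies. The 7 removed cells had 250113 to 666521 counts, a glial marker sum of 44082 to 104332 CPM and Tubb3 at 146 to 1810 CPM, and the part of these in their Atf3 level was not tested.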

How the results depend on the processing

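No paired analysis was possible because the results come from no test, and cell numbers shared between groups name no animal. The counts of genes at least 2-fold higher and lower (870 and 1038) were 548 and 668 with a pseudocount of 10 CPM and 233 and 320 among genes of at least 100 CPM. The higher count was 1546 with a mean of at least 1 CPM, and the lower count was 1626 with outlier cells added. Leaving out each cell in turn gave 844 to 965 and 1021 to 1059. The 50 genes whose sets did not overlap became 50 to 102 in that way (102 without Atf3-low cell 18), 14 with outlier cells added, 514 in cells with Nefh under the median, 177 at or above it and 316 in P2rx3-positive cells, where fewer cells make overlap rarer.

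With outlier cells added, the ratio turned for B2m (-1.27), Casp6 (-0.080), Cryab (-1.56), Phgdh (-2.05), Socs3 (-0.90), Vim (-1.21) and the median of immediate early genes (-1.38). In P2rx3-positive cells it turned for Asic1 (-0.29), Cryab (-0.28) and Kcnj3 (-1.43). Cryab (-0.15) and Slc17a7 (-0.18) turned in cells with Nefh under the median, Cartpt (-1.52) at or above it, Kcnj3 (-0.56) with medians over cells and Nppb (-0.039, against at most 3.64 without any other cell) without Atf3-high cell 10. The neuropeptide median was -0.74 over members of at least 100 CPM. Some ratios kept their sign but were under 2-fold. With outlier cells added these were Arc (0.19), Btg2 (0.22), Cd63 (0.66), Azin1 (0.94), Insig1 (0.81), Bid (-0.77), Scn9a (-0.86), Syt1 (-0.82), Isl1 (-0.65), Prrxl1 (-0.61) and Rab3a (-0.63). In cells with Nefh at or above the median they were Bid (-0.01), Nppb (0.09), Penk (0.62), Lpar3 (-0.86), Gap43 (0.73), Fosl2 (0.95), Stat5b (0.64), Kcnc1 (0.63), Piezo2 (-0.39), Isl1 (-0.89), Rab3a (-0.85) and Tap2 (-0.56). Under that median they were Scg2 (-0.68), Prrxl1 (-0.97), Bcl2 (-0.999), Kcnj3 (0.48), Phgdh (0.85), Vim (0.91) and Stmn2 (0.996). In P2rx3-positive cells they were Insig1 (0.85), Phgdh (0.93), Stmn2 (0.95) and Vim (0.99). From medians over cells they were Asic1 (0.49), Cartpt (0.53), Penk (0.72), Gfra2 (-0.82), Ngfr (-0.58), Prrxl1 (-0.98) and Ptgir (-0.94, and -3.29 from means), and those of Lpar3 and Nppb were 0. With 1 cell left out, ratios under 2-fold were Kcnc1 (0.86) and Cryab (0.87) without Atf3-high cell 29 and Kcnj3 (0.66) without Atf3-high cell 5. Cartpt was at 0.36 without Atf3-high cell 10. Isl1 was at -0.88 without Atf3-low cell 44, Prrxl1 at -0.82 without Atf3-low cell 31 and Rab3a at -0.97 without Atf3-low cell 18. The cause was not tested. Scaling by the median of ratios moved the median ratio of all genes from -0.03 to 0.00 and turned none of the named genes. Depth limits statements on genes near the floor of 3 counts per set, and the 11 Atf3-low cells limit those on rare neuron types.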
